A study of Drosophila melanogaster with 6 samples.

Results

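A set of 10 genes of cell recognition and cell sorting were followed in eye-antennal discs of Drosophila melanogaster, the larval epithelia that form the adult eye and antenna. They were taken as every probe set whose platform annotation names a single gene, where that gene is rst, kirre, hbs, sns, shg, CadN, stan, Cad74A, Cad86C or Cad87A. All 10 genes had such a probe set, 16 in all, 6 of them for sns and 2 for Cad86C, out of 12443 single-symbol probe sets for 10844 genes. Discs in which GMR-Gal4 drove UAS-RasV12 (genotype GMR Gal4/UAS RasV12) were compared with discs in which it drove UAS-sSpi (GMR Gal4/+; UAS sSpi/+), with 3 arrays per genotype and 6 in all. The driver GMR-Gal4 acts posterior to the morphogenetic furrow, the groove that sweeps across the eye disc as photoreceptors begin to form, so the antennal part and the cells ahead of the furrow lie outside its main domain. RasV12 is an activated form of the GTPase Ras, and sSpi is secreted Spitz, an EGF receptor ligand that signals through Ras. Every sample held 100 discs of wandering larvae of instar 3 raised at 25 °C, and all groups carried GMR-Gal4. No discs without a UAS transgene were analysed here, so each difference sets one transgene against the other.

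Rst (Roughest) and Kirre (Kin of irre) are immunoglobulin-domain proteins of the cell surface, paralogs of each other, and bind the immunoglobulin-domain proteins Hbs (Hibris) and Sns (Sticks and stones) on neighbouring cells. The 4 are called the irre cell recognition module (IRM). In the pupal retina their contacts between interommatidial cells and primary pigment cells sort the pigment cell lattice, and in the embryo the same proteins join muscle founder cells with fusion-competent myoblasts. Shg is E-cadherin, the main cadherin of epithelial adherens junctions, and CadN is N-cadherin, found on photoreceptors and their axons and on cone cells. Stan (Flamingo) is a seven-pass transmembrane cadherin of planar cell polarity, needed when the R3 and R4 photoreceptors take different fates and when photoreceptor axons choose their targets. Cad86C is a cadherin that is switched on in the morphogenetic furrow by Hedgehog and Dpp signalling, and Cad74A has been studied in ovarian follicle cells. The discs were taken before the pupal sorting of pigment cells.

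A single member probe set passed the test, 1 of the 2 for Cad86C, which was higher in RasV12 discs, and no member passed as lower. CadN came next, with signals in all 3 RasV12 arrays below those of all 3 sSpi arrays, and missed the threshold. Of the 16 member probe sets, 10 for 9 genes lay among the 8380 tested, the upper 60% by mean signal, and 6 (the kirre probe set and 5 of the 6 sns probe sets) lay below that filter, at mean signals under 23.4. Fold changes are RasV12 over sSpi as differences of log2(signal + 16), a scale on which changes of dim genes look smaller than they are, and were tested with limma over all probe sets tested, with Benjamini-Hochberg adjustment and a threshold of 0.05. Over all of them 2.61% passed in either direction, 1.30% as higher and 1.31% as lower, so that 1 of 10 member probe sets is read against that share. The 10 tested member probe sets had a median log2 fold change of -0.18 and a median absolute difference of 0.26, against -0.01 and 0.14 over all 8380 probe sets.

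**Figure D1:**
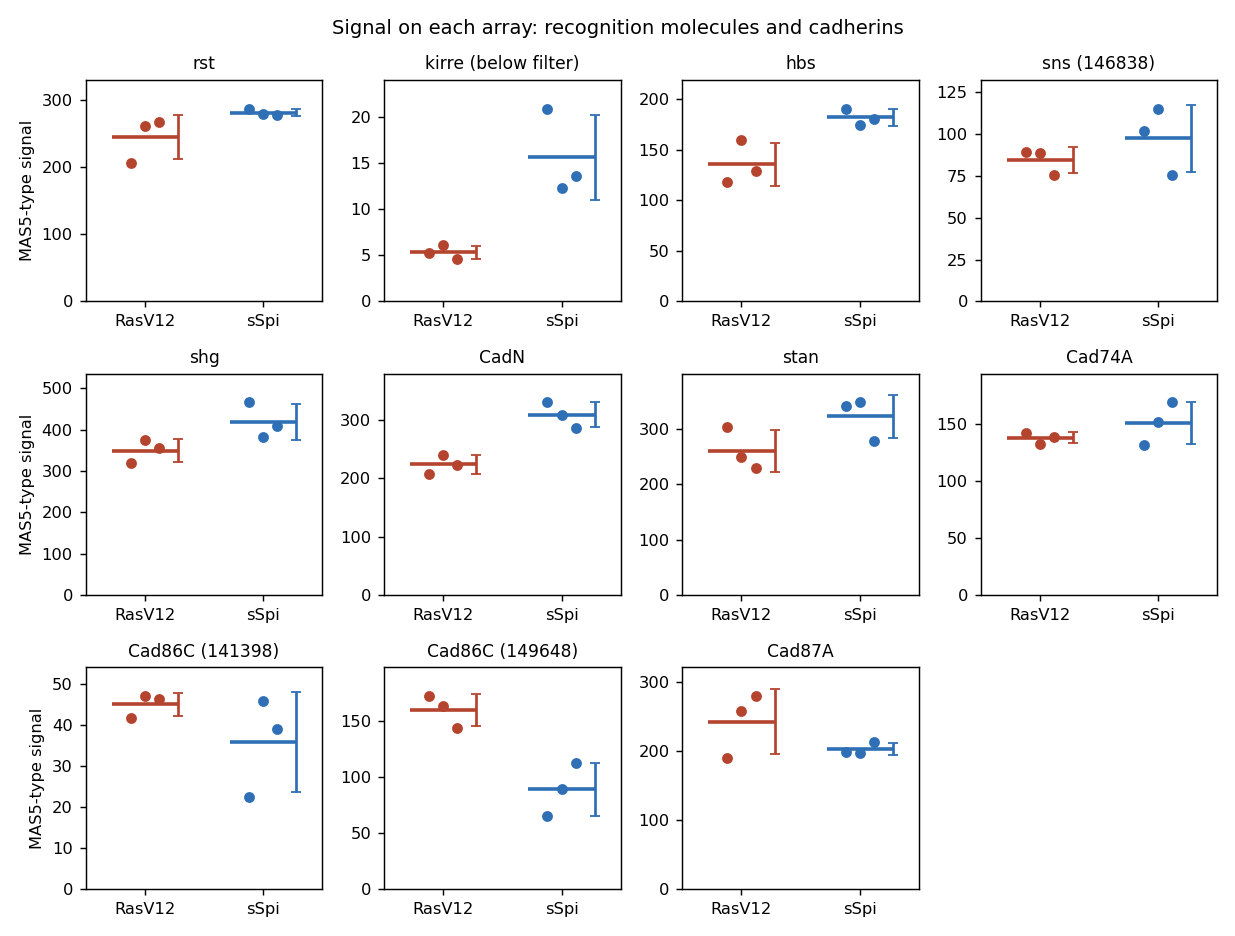
Signal (MAS5-type, linear scale from 0) on each of the 6 arrays for the 10 tested member probe sets and kirre, with the mean as a line and the SD as a bar (n = 3 per genotype). The 3 RasV12 signals of Cad86C probe set 149648, from 143.6 to 171.8, all lie above the 3 sSpi signals, and the 3 RasV12 signals of CadN, from 208.0 to 240.7, all lie below the 3 sSpi signals.

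The arrays had median signals from 39.5 to 41.4. RasV12 replicate 1 stood apart on the second principal component of the tested probe sets (24.9% of the variance), at 20.3 against -13.4 to 3.93 on the other 5 arrays. On the first component (38.1%), sSpi replicate 2 lay at -19.6, against -9.79 and -8.47 on the other sSpi arrays. Values without RasV12 replicate 1 are given for several results below. All 7 eye disc markers lay above the signal filter. So did the 4 of 5 antennal disc markers that had a single-symbol probe set, and the antennal marker hth had none. For spi, the gene of the sSpi transgene, the mean signal was 1018 ± 25.8 for RasV12 and 1314 ± 83.6 for sSpi (SD, n = 3), which missed the threshold at a log2 fold change of -0.36 (limma adjusted p = 0.082), and Ras85D had no single-symbol probe set. Whether the spi probe set lies within the transgene was not analysed here. In whole discs, fewer cells of a type and less RNA per cell cannot be told apart.

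Of the immunoglobulin-domain recognition molecules, rst measured 206.5, 261.1 and 267.2 in the RasV12 arrays 1 to 3, against 287.2, 279.6 and 277.3 in the sSpi arrays 1 to 3. The groups did not overlap, but RasV12 arrays 2 and 3 lay close to the sSpi arrays and array 1 stood well below. The log2 fold change was -0.20 ± 0.12 (SE), with a 95% interval from -0.46 to 0.07, and did not pass (limma adjusted p = 0.48). Without RasV12 replicate 1 it was -0.09 (limma adjusted p = 0.65).

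Its partner gene hbs had signals of 117.8, 159.3 and 129.1 in RasV12, against 190.5, 174.7 and 180.1 in sSpi. Every RasV12 array was below every sSpi array, with the gap from 159.3 to 174.7. The means were 135 ± 21.4 for RasV12 and 182 ± 8.04 for sSpi (SD, n = 3 each), a log2 fold change of -0.39 ± 0.12 (95% interval from -0.67 to -0.12), a 1.31-fold higher level in sSpi. It missed the threshold, with a limma adjusted p of 0.16 and an unadjusted p of 0.010. Without RasV12 replicate 1 the log2 fold change was -0.31 (limma adjusted p = 0.18). The log2 ratio of rst to hbs within each array was 0.73, 0.66 and 0.96 in RasV12 and 0.55, 0.63 and 0.58 in sSpi. The groups did not overlap, though RasV12 array 2 and sSpi array 2 were close. The exact two-sided permutation p was 0.1, the smallest that 3 arrays against 3 allow, so that the ratio could not pass at 0.05, and also 0.1 after adjustment over the 3 ratios computed.

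The kirre probe set was dim on all 6 arrays, at 5.27, 6.09 and 4.58 in RasV12 and 20.96, 12.3 and 13.7 in sSpi. All 6 values lay under the signal filter, and the 3 RasV12 values were the lower ones. A fit that kept all 13966 probe sets gave a log2 fold change of -0.56 ± 0.12, not past the threshold (limma adjusted p = 0.10). With a pseudocount of 1 the difference was -1.37 and with 64 it was -0.20, so no size can be given for this gene. In the RefSeq gene table (Release 6 plus ISO1 MT), rst and kirre lie near each other on the same chromosome, with the starts of 19 protein-coding genes between theirs.

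The 6 sns probe sets did not report alike. Probe set 146838 measured 89.6, 88.8 and 75.5 in RasV12 and 101.7, 115.3 and 75.6 in sSpi, with overlapping groups, and the log2 fold change was -0.16 ± 0.15 (limma adjusted p = 0.67). It was -0.09 without RasV12 replicate 3, -0.0484 without sSpi replicate 2 and -0.31 without sSpi replicate 3. The other 5 lay between 1.68 and 21.2 on all arrays, below the filter, with overlapping groups and log2 fold changes from -0.13 to 0.02 in the fit of all probe sets. Sns thus rests on a single probe set. As sns and kirre also act in muscle precursors, muscle and myoblast markers were read beside them. Of 9 such markers 6 could be named on the array and 4 of these were tested, while twi and bt were below the filter on all arrays. None passed, and 1 was higher at an unadjusted p under 0.05. That gene was htl, at a log2 fold change of 0.69 without overlap of the groups (limma adjusted p = 0.055). The summed signal ranged from 422 to 748 in RasV12 and from 272 to 911 in sSpi. Mlc2 alone ranged from 163.4 to 654.6 over the 6 arrays. The part of these markers in the sns and kirre values was not tested.

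Among the cadherins, shg (E-cadherin) had signals of 319.6, 373.9 and 354.4 in RasV12 and 465.5, 381.4 and 408.5 in sSpi. The groups did not overlap, though RasV12 array 2 and sSpi array 2 were close. The log2 fold change was -0.25 ± 0.11, with a 95% interval from -0.50 to 0.0005, and did not pass (limma adjusted p = 0.33).

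CadN (N-cadherin) had signals of 208.0, 240.7 and 222.2 in RasV12 and 329.9, 309.2 and 286.9 in sSpi. The genotypes were well apart, with no RasV12 array above 240.7 and no sSpi array below 286.9. Mean signals were 224 ± 16.4 for RasV12 and 309 ± 21.5 for sSpi (SD, n = 3 each), a log2 fold change of -0.44 ± 0.10 (95% interval from -0.67 to -0.20) and 1.35-fold higher in sSpi. It did not pass, with a limma adjusted p of 0.068 and an unadjusted p of 0.0021, and in 16 other settings the adjusted p ranged from 0.056 to 0.25. The neighbouring gene CadN2, a close copy of CadN, had means of 36.5 ± 9.27 for RasV12 and 30.4 ± 7.03 for sSpi, a log2 fold change of 0.18 ± 0.18 (limma adjusted p = 0.71, n = 3), and whether either probe set also detects the other transcript was not tested. The within-array log2 ratio of CadN to shg averaged -0.61 ± 0.03 in RasV12 and -0.42 ± 0.11 in sSpi (SD, n = 3), with no overlap between the groups and an exact two-sided permutation p of 0.1.

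Photoreceptor and neuron markers, read beside CadN, had a summed signal of 578 to 902 in RasV12 and 876 to 931 in sSpi. None of the 6 tested passed, 5 of them had differences below 0, and RasV12 replicate 1 was the low array, with brp, a protein of the synaptic active zone, at 3.31. The smallest p values were those of brp, at a log2 fold change of -0.85 (-0.43 without RasV12 replicate 1), and of futsch, a microtubule-binding protein, at 0.28 (limma adjusted p = 0.22 and 0.39). On the log2 scale the mean deviation of these markers from their mean over 6 arrays was -0.51 on that array, 0.05 and 0.08 on the other RasV12 arrays and 0.12 to 0.13 on the sSpi arrays. Without RasV12 replicate 1 the CadN difference was -0.39 ± 0.10 (limma adjusted p = 0.071). The part of these markers in the CadN difference was not tested.

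Signals of stan were 302.3, 248.7 and 229.3 in RasV12 and 341.4, 347.0 and 276.9 in sSpi. The groups overlapped, since RasV12 replicate 1 lay above sSpi replicate 3. The log2 fold change was -0.29 ± 0.13 (95% interval from -0.59 to 0.0047) and did not pass (limma adjusted p = 0.34). Without RasV12 replicate 1 it was -0.40 (limma adjusted p = 0.10).

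Cad86C had the member probe set with the smallest p. Probe set 149648 measured 171.8, 163.2 and 143.6 in RasV12, against 65.1, 88.8 and 112.4 in sSpi. All RasV12 arrays were above all sSpi arrays, and the sSpi arrays spread more widely. Mean signals were 159.5 ± 14.5 for RasV12 and 88.8 ± 23.6 for sSpi (SD, n = 3 each), a log2 fold change of 0.77 ± 0.17 (95% interval from 0.40 to 1.14), or 1.70-fold higher in RasV12, with a limma adjusted p of 0.044. The call was lost in 9 of 16 other settings, while the difference stayed above 0 in all 16, between 0.56 and 0.93. It did not pass with RasV12 array 1 (limma adjusted p = 0.066), 2 (0.15) or 3 (0.066) left out, nor with sSpi array 1 (0.12) or 2 (0.15) left out, and it passed with sSpi array 3 left out (0.025).

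The second Cad86C probe set, 141398, gave a smaller difference that did not pass. Its signals were 41.7, 46.9 and 46.2 in RasV12 and 22.3, 45.9 and 39.0 in sSpi. The groups overlapped, and sSpi array 1 alone was far below the others, as it was the lowest sSpi array with the first probe set too. The log2 fold change was 0.26 ± 0.19 (limma adjusted p = 0.55), with 0.06 without sSpi replicate 1 (limma adjusted p = 0.91) and 0.41 without sSpi replicate 2 (0.50). The log2 ratio of the first to the second probe set was 1.70, 1.51 and 1.36 in RasV12 and 1.08, 0.76 and 1.22 in sSpi, without overlap (exact two-sided permutation p = 0.1), so the pair of probe sets disagreed by 0.50 on the log2 scale. Which part of the gene or which transcripts each probe set detects was not analysed here.

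**Figure D2:**
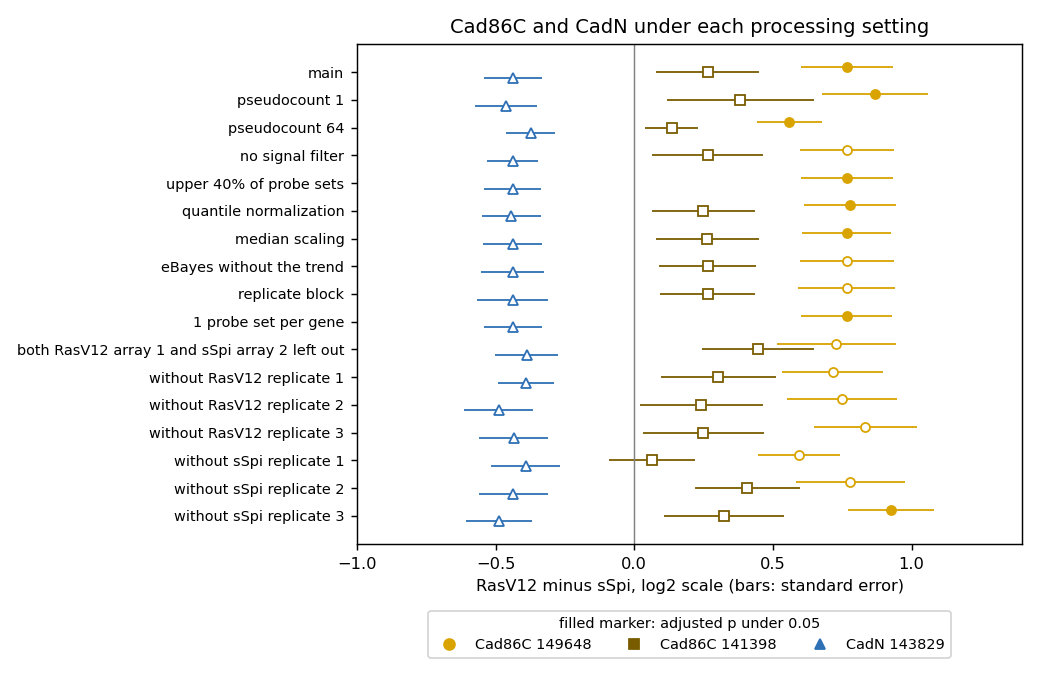
RasV12 minus sSpi differences on the log2 scale (x axis, bars are standard errors) of both Cad86C probe sets and CadN in the reported fit (named main) and 16 other settings, with filled markers for a limma adjusted p under 0.05. Cad86C probe set 149648 stays between 0.56 and 0.93 and loses its call in 9 settings. Probe set 141398, which was tested in 14 of the 16 other settings, stays above 0 without a call. CadN stays between -0.49 and -0.37 without a call.

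The tested probe sets of other genes with a profile over the 6 arrays most like Cad86C probe set 149648, by the root mean square distance between centred log2 values, were those of Brd, Pde8, sls and sktl, at distances from 0.11 to 0.13. Brd encodes a Bearded family antagonist of Notch signalling, Pde8 a cyclic nucleotide phosphodiesterase, sls the giant muscle protein titin and sktl a phosphatidylinositol 4-phosphate 5-kinase. Signals of Brd were 735.9, 667.4 and 558.5 in RasV12 and 339.9, 349.6 and 485.6 in sSpi. Like Cad86C, all 4 had higher signals on every RasV12 array than on any sSpi array. Brd, sls and sktl passed as higher in RasV12 (limma adjusted p = 0.040, 0.014 and 0.0069), and Pde8 did not (0.095). The choice by likeness brings such values with it. The muscle gene sls was not in the list of muscle markers. Among the eye disc markers ato, a proneural gene, was higher in RasV12, at 461 ± 37.7 against 207 ± 21.8 in sSpi (SD, n = 3). Its log2 fold change was 1.10 (limma adjusted p = 0.0012), and its part in the Cad86C difference was not tested.

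Cad87A measured 188.7, 257.8 and 278.7 in RasV12 and 197.7, 196.5 and 211.8 in sSpi. RasV12 replicates 2 and 3 were above all sSpi arrays and RasV12 replicate 1 was below them. The log2 fold change was 0.23 ± 0.14 (limma adjusted p = 0.50), and without RasV12 replicate 1 it was 0.38 ± 0.10, which also did not pass (limma adjusted p = 0.066). Without RasV12 replicate 3 it was 0.12 (limma adjusted p = 0.77). The score of the ecdysone response genes, the mean log2 deviation of 16 tested genes that respond to the steroid of metamorphosis, was -0.42, 0.51 and 0.61 on these RasV12 arrays and 0.0026, -0.12 and -0.59 on the sSpi arrays, and its part in the Cad87A values was not tested. Cad74A measured 141.9, 132.5 and 138.3 in RasV12 and 131.5, 151.4 and 168.6 in sSpi. Its groups overlapped, and the log2 fold change was -0.11 ± 0.12 with a 95% interval from -0.37 to 0.15 (limma adjusted p = 0.71). It was -0.20 without sSpi replicate 1 and -0.03 without sSpi replicate 3.

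**Figure D3:**
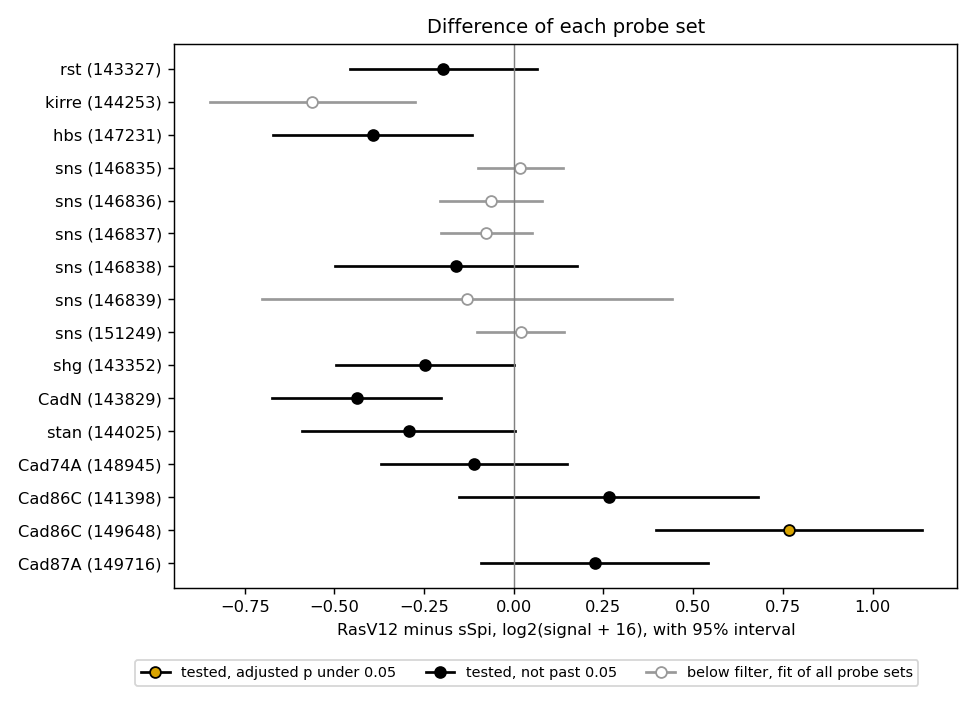
RasV12 minus sSpi differences on the log2(signal + 16) scale with 95% intervals (x axis) for the 16 member probe sets (y axis), filled black for tested, gold for past an adjusted p of 0.05 and open grey for those below the signal filter, taken from the fit of all probe sets. Only Cad86C probe set 149648, at 0.77, passed, and 7 of the 10 tested probe sets lie below 0.

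Of the 10 tested probe sets 7 differed below 0 and 3 above, where 51.3% of all tested probe sets differed below 0. Groups did not overlap for 4 of them as lower in RasV12 (rst, hbs, shg and CadN), where 11.1% of all tested probe sets did so, and for 1 as higher (Cad86C), where 10.2% did. At an unadjusted p under 0.05, hbs and CadN were lower and Cad86C higher, against 7.68% and 7.53% of all tested probe sets. The members were chosen with earlier results of these data known, and these counts are a description of them.

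Of 56 tested genes of 7 related lists, each counted once by its brightest probe set, 5 passed the test, 3 higher and 2 lower in RasV12. This was 8.93%, against 2.61% of all probe sets tested, where a gene can count more than once. The 3 higher genes all came from the list of interommatidial and cone cell regulators. The lists were chosen with earlier results of these data known, and these shares are a description of them. Tested were 11 of 15 recognition and fusion genes, 13 of 14 adherens junction genes, 6 of 10 other cadherins and 6 of 13 planar polarity genes. Further, 9 of 13 interommatidial and cone cell regulators, 5 of 8 actomyosin and 9 of 11 axon targeting genes were tested. Without a single-symbol probe set were, among others, arm, ft, fz, dsh, pk, N, Dl, zip, sqh and Rho1. The absence of calls in a list covers its tested genes only. Of 11 tested genes that bind or act downstream of the Rst and Kirre proteins in recognition and cell fusion, none passed in either direction in limma, while 1 was higher and 2 lower at an unadjusted p under 0.05, with a list median of -0.06. The adaptor gene Crk had the smallest p, at 786 ± 8.68 for RasV12 and 665 ± 2.86 for sSpi (SD, n = 3 each), a log2 fold change of 0.24 (limma adjusted p = 0.22), followed by Cbl, a ubiquitin ligase that acts on receptors, at -0.23 (limma adjusted p = 0.29). The ZO-1 homolog pyd and the adaptor cindr, both of which work with these proteins in the pupal retina, differed by 0.10 and 0.16 and were picked after their values were seen. None of 13 adherens junction genes passed in limma, and 1 was lower at an unadjusted p under 0.05, with a list median of -0.0042. That gene was baz, the Par-3 homolog, at 167 ± 25.0 in RasV12 and 220 ± 27.0 in sSpi (SD, n = 3), with a limma adjusted p of 0.23. Alpha-catenin (alpha-Cat), which links the E-cadherin complex to actin, differed by 0.18 (limma adjusted p = 0.42).

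None of 6 other cadherin genes tested (median -0.05) passed in limma, with 1 higher at an unadjusted p under 0.05, Cals (calsyntenin) at a log2 fold change of 0.28, followed by Cad89D at -0.38 (limma adjusted p = 0.31 and 0.40, n = 3). The Cad89D value was -0.57 without RasV12 replicate 1 and -0.25 without RasV12 replicate 2. None of 6 tested planar polarity genes, read beside stan (median 0.03), passed in limma, and 1 was higher at an unadjusted p under 0.05. That gene was Vang, which encodes a core planar polarity membrane protein, at 377 ± 34.8 in RasV12 and 277 ± 63.6 in sSpi (SD, n = 3, limma adjusted p = 0.23). Its log2 fold change was 0.44, and 0.25 without sSpi replicate 2, the low array at 204.4. The palmitoyltransferase gene app had the next smallest p, at a log2 fold change of -0.21.

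Of 9 tested regulators of interommatidial and cone cells (median 0.38), 3 passed as higher in RasV12 than in sSpi and none as lower. These were lz, B-H1 and Egfr, with log2 fold changes of 1.90, 1.35 and 0.71 (limma adjusted p = 0.0025, 0.0037 and 0.014, n = 3). The call of Egfr was lost without sSpi replicate 1 (limma adjusted p = 0.073) or sSpi replicate 3 (0.055). The immunoglobulin-domain gene ed, which also sorts cells, was among the 9 and differed by 0.0092. Of 5 actomyosin genes (median -0.11) 1 passed as lower in RasV12 than in sSpi and none as higher. Among 9 partners in photoreceptor axon targeting (median -0.05), 2 passed as lower and none as higher. The gene that both lists hold was ena, an actin filament elongation factor. It had signals of 115.4, 125.1 and 115.5 in RasV12, against 202.1, 196.2 and 210.1 in sSpi, far apart and tight within each genotype. Its log2 fold change was -0.70 ± 0.10 (limma adjusted p = 0.0062) and kept its call in all 16 other settings. Nrg (neuroglian), an L1-type adhesion molecule, was also lower in RasV12, by 0.57 on the log2 scale (limma adjusted p = 0.013). It lost its call with the replicate number as a block (0.053) and when RasV12 array 2 (0.072), sSpi array 2 (0.064) or sSpi array 3 (0.054) was left out. Lar, a receptor tyrosine phosphatase that acts in targeting along with CadN, differed by 0.49 ± 0.14 (limma adjusted p = 0.12) and was picked after its values were seen.

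**Figure D4:**
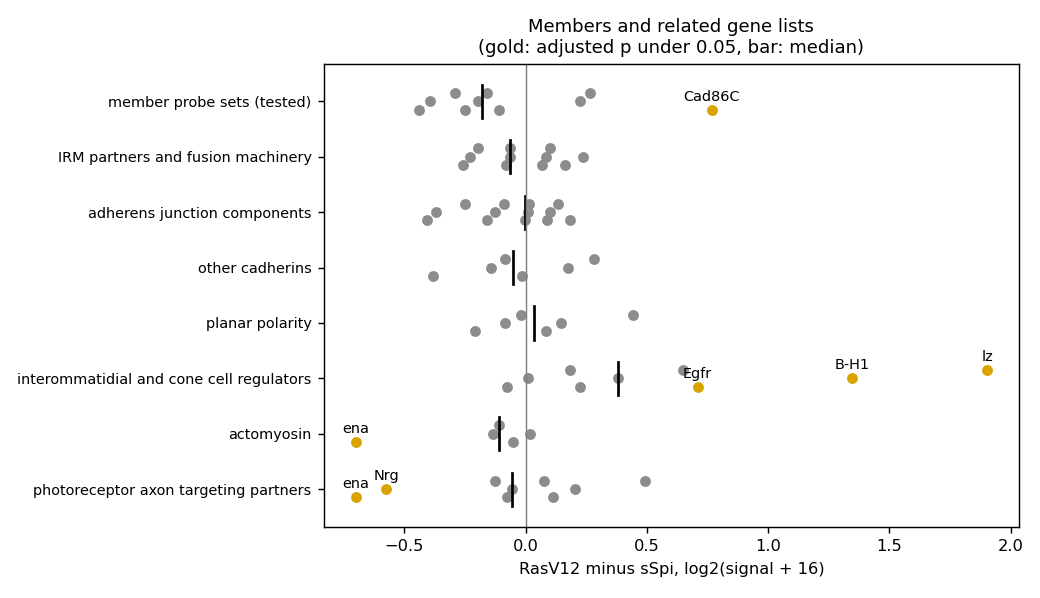
RasV12 minus sSpi differences on the log2(signal + 16) scale (x axis) of the 10 tested member probe sets and of the tested genes of 7 related lists (y axis), a point per gene, gold where the limma adjusted p is under 0.05, with the median as a bar. The member median lies at -0.18, and the called genes are Cad86C, lz, B-H1 and Egfr above 0 and ena and Nrg below 0.

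Markers of other cells in the discs were read once beside these lists. Of 5 tested genes of the glial list 1 passed, Gli, lower in RasV12 at 738 ± 43.0 against 1189 ± 39.8 in sSpi (SD, n = 3, limma adjusted p = 0.0051). At an unadjusted p under 0.05, 1 was higher and 2, Gli among them, were lower. Whether the Gli signal comes from glia was not tested. The summed glial signal was 1102 to 1249 in RasV12 and 1591 to 1696 in sSpi, and without Gli it was 410.0 to 473 in RasV12 and 427 to 529 in sSpi, which overlap. Of 7 hemocyte markers 3 were tested. None of these 3 passed, with summed signals of the list of 248 to 387 in RasV12 and 227 to 370 in sSpi, and none had an unadjusted p under 0.05. Those with the smallest p were Pxn, at 0.37 (0.12 without sSpi replicate 2 and 0.57 without sSpi replicate 3), and Hml, at -0.27. Of the 7 eye disc markers 1 passed as higher in RasV12, ato, and 1 as lower, ey (limma adjusted p = 0.048). The call of ey was lost in 12 of 16 other settings. None of 4 antennal disc markers and none of the 16 tested of 21 ecdysone response genes passed in limma. At an unadjusted p under 0.05, 1 antennal marker was higher (ss, at a log2 fold change of 0.40) and 1 lower (salm, at -0.42), and 5 ecdysone response genes were higher. The smallest p values among the ecdysone response genes were those of Cth, at 0.45, and ImpE3, at 1.61 (limma adjusted p = 0.10 and 0.11). The part of these cells in the member values was not tested.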

How the data were processed

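The authors deposited linear intensities, a signal for each probe set on each array, all scaled to a common trimmed mean. Per the submitters' processing notes the tool was MAS5, with the version not given in the sources used here. Per the labels' protocols, biotin-labelled cRNA came from 5 ug of total RNA. Columns were matched by sample name, with 0 unmatched. Gene names came from the platform annotation, updated through gene identifiers to assembly Release 6 plus ISO1 MT. Of 13966 probe sets without 44 controls, 327 had several symbols and 1196 none. Gene starts in that release served only to place rst near kirre and CadN near CadN2, and no coordinates are given.

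Signals were taken as log2(signal + 16), the upper 60% by mean signal over all arrays were tested, and RasV12 minus sSpi was fitted by lmFit and eBayes with a trend (two-sided; limma 3.58.1, R 4.3.3). The fit was also run on simulated data with noise independent between probe sets and arrays, and no outcome is given here. Deviations of a whole array, as on RasV12 replicate 1, were not simulated. The number of arrays limits the precision, and the titles call the arrays biological replicates. Arrays were grouped by title, since the free-text description given for sSpi mentions RasV12. Arrays with the same replicate number did not deviate together (correlations from -0.136 to -0.0384), and were not treated as pairs.

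Named are all members, up to 4 called genes of each of 7 related and 7 marker lists, or the 2 with the smallest p, each by its brightest probe set, the 4 profiles most like the member with the smallest p, and genes said to be picked after their values were seen. Outside these rules, CadN2, ed, spi, Ras85D, twi, bt and list genes without a single-symbol probe set are also named. The members and lists were chosen with earlier results of these data known. Plots used matplotlib 3.10.9 (Python 3.11.15).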

Additional observations from a re-analysis of the deposited data

How the results depend on the processing

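Other settings changed the pseudocount (1 or 64), the signal filter (none, or the upper 40%), the scaling between arrays (quantile or median), the trend in eBayes (none), the design (a replicate block), or the probe sets kept (the brightest of each gene), or had each array left out in turn, or RasV12 replicate 1 and sSpi replicate 2 left out together. The count over all probe sets was 219, and 138 without the filter, where more probe sets are adjusted for. With 1 array left out it ranged from 86, without sSpi replicate 2, to 369, without RasV12 replicate 1. The count of member probe sets called was 1, and 0 without the filter, without the trend, with the replicate block and without both arrays; with 1 array left out it ranged from 0 to 1. Under the block the total was 159. Cad86C probe set 149648, the only member probe set called in the reported fit, then had a limma adjusted p of 0.069. No tested member changed direction in any setting, while sns probe set 146839, below the filter, ranged from -0.34 to 0.08. The muscle marker Mlc2, at 0.32, turned to -0.20 without both arrays and ranged from -0.0567 to 0.89 with 1 array left out, and the hemocyte marker Hml, at -0.27, ranged from -0.63 to 0.0381; neither was called, and the cause was not tested. Signal near background limits kirre and 5 sns probe sets.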

Other observations

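On RasV12 replicate 1 the adherens junction and axon targeting lists, read as the mean log2 deviation from the 6-array mean, lay at -0.16 and -0.19, against 0.01 to 0.05 and 0.03 to 0.05 on the other RasV12 arrays and 0.01 to 0.05 and 0.0025 to 0.06 on the sSpi arrays. The actomyosin list lay at -0.20 on that array, -0.04 and -0.05 on the other RasV12 arrays and 0.04 to 0.14 on the sSpi arrays. Muscle markers spread widely among arrays of 1 genotype, and the myosin light chain gene Mlc2 measured 556.6, 282.3 and 289.4 in RasV12 and 163.4, 209.2 and 654.6 in sSpi. The FGF receptor gene htl, a marker of muscle precursors and also used by glia, measured 53.5, 42.8 and 42.6 in RasV12 and 26.8, 17.4 and 23.8 in sSpi, with no overlap between genotypes, and its log2 fold change of 0.69 ± 0.16 missed the threshold (limma adjusted p = 0.055); it passed with a pseudocount of 64 (0.049) and without the trend in eBayes (0.036). ImpE3, an ecdysone-inducible gene, measured 66.9, 199.6 and 296.1 in RasV12 and 53.1, 60.6 and 21.0 in sSpi, with a limma adjusted p of 0.11, and of 0.0071 without RasV12 replicate 1.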
